A study of Mus musculus with 6 samples.

Results

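The Polycomb repressive complex 2 (PRC2) genes Ezh1, Ezh2, Eed, Suz12 and Jarid2 and the histone H3 lysine 9 (H3K9) methyltransferase genes Ehmt1, Ehmt2, Suv39h1, Suv39h2 and Setdb1 were examined in embryonic mouse heart valve tissue. The members were taken by symbol, by matching each Ensembl identifier to the annotation of the genome build, and all 10 of 10 had a row among the 18810 genes of the table. RNA was sequenced from atrioventricular canal (AVC) regions of C57BL/6 mouse hearts at E15.5, from 3 Scx-/- (Scx null) and 3 Scx+/+ (wild-type littermate) embryos, to ask which mRNAs depend on Scleraxis (Scx), a basic helix-loop-helix transcription factor, while the valves remodel. By the study's account the dissected region contained the mitral, tricuspid and aortic valves with little myocardium, while cardiomyocyte markers were abundant in every library, as given below, and the cells were not sorted, so each value is an average over all cells of the piece. Levels are given as RPKM, reads scaled to exon length and library size, so that levels of different genes are compared per length. Depth recovered from the values was 52323456, 66991281 and 59737758 reads for the Scx-/- replicates, in order, and 60027726, 46429988 and 68571049 for the Scx+/+ replicates.

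Scx itself was 33.6, 18.6 and 82.9 RPKM in Scx-/- and 29.5, 58.3 and 26.0 RPKM in Scx+/+. Values in a row are always those of replicates 1, 2 and 3, in that order. The library labelled Scx-/- replicate 3 had the highest value and the genotypes overlapped. The study reports a large decrease of the first exon of Scx in Scx-/- samples before sequencing, but the table has no separate value for that exon, so the whole-gene value does not check the genotype labels and each library is named here as labelled. Scx+/+ replicate 2 stood apart: 2252 of its genes were at the common low value the authors filled in, against 1088 to 1465 in the other 5 libraries, and its median correlation with the other libraries was 0.930, against 0.948 to 0.960 (Pearson, log2 values, across 13827 genes, which are not independent replicates). Its RPKM also summed to 2.30e+06 over all genes, against 8.20e+05 to 1.24e+06 in the other 5 libraries. Xist was expressed in replicate 2 of both genotypes and Y-linked genes in replicates 1 and 3 of both, so the sexes were balanced between genotypes.

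PRC2 places methyl groups on lysine 27 of histone H3 (H3K27), a mark of silenced developmental genes, and the complex restrains transcription in the developing heart. Methylation of H3K9 by a separate set of enzymes marks silent euchromatic genes and condensed heterochromatin. Both systems write marks that are kept through cell division, and several of their subunits are made most in dividing cells.

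Tests used limma on log2(RPKM + 0.1), with no covariate, and genes under 0.05 before adjustment are the ones called below. Fold changes are Scx-/- minus Scx+/+ of these values, and the added 0.1 makes those of low genes too small. The p-values measure the spread between libraries, each from the valve region of 1 embryo, and in such tissue fewer cells of a type and less RNA per cell cannot be told apart. Across all genes 731 of 18810 (3.89%) were called, 531 higher and 200 lower in Scx-/-, and 0 (0%) after Benjamini-Hochberg adjustment. Of the members, 0 of 10 were called by limma, against that background of 3.89%, and 0 of 10 by one-way ANOVA on RPKM or on its log2, which called 848 and 865 genes in all. Their limma adjusted p ran from 0.967 to 0.998. Members whose genotypes did not overlap numbered 0 of 10, against 9.5% of all genes (1787 of 18810). The median log2 fold change was 0.043 over the members and 0.10 over all genes.

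Because the median gene was shifted by 0.10 on the deposited scale, the libraries were also given a common median (genes averaging 1 RPKM or more), which moved the median of all genes to -0.0045. After this median centring 646 of 18810 genes (3.43%) were called, 281 higher and 365 lower, and 0 (0%) after adjustment. Then 1 of 10 members, Ehmt1, was called, lower in Scx-/-, against a background of 3.43%, and 0 of 10 after adjustment (limma adjusted p = 1.00 for Ehmt1). The median centred fold change of the members was -0.067. The plot of genotype differences shows both scales.

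**Figure D1:**
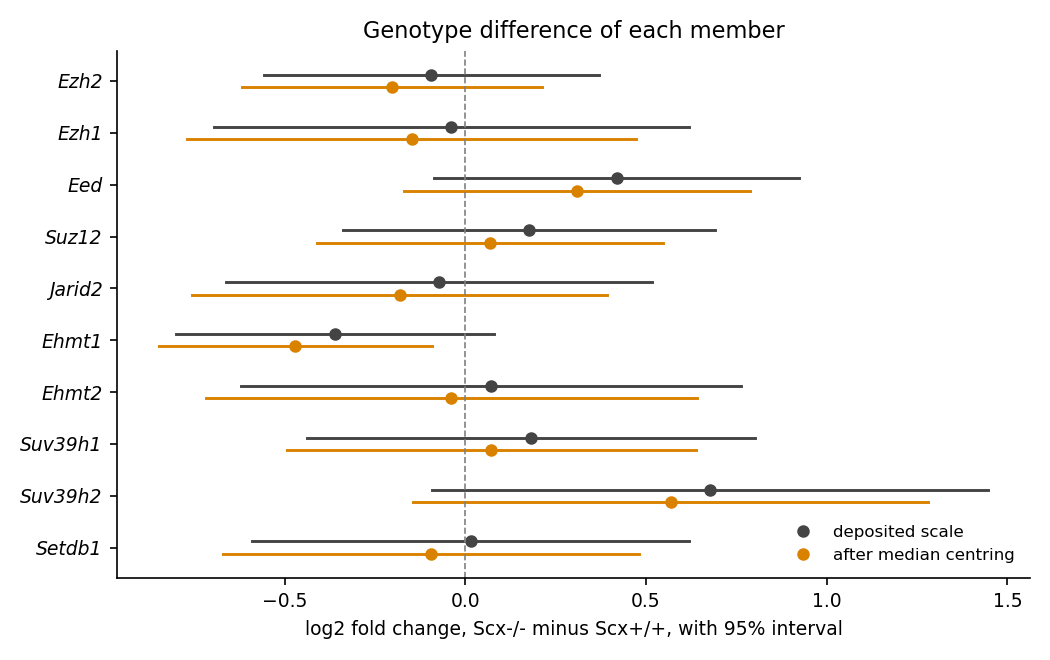
Log2 fold change, Scx-/- minus Scx+/+, of each member on the deposited scale (grey) and after median centring (orange), with points for the estimate and lines for the 95% interval from limma over 3 libraries a genotype. Every interval on the deposited scale spans 0, and after centring that of Ehmt1 runs from -0.85 to -0.092.

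Levels fell into a higher and a lower range. Eed, Suz12, Ezh2 and Ehmt1 had means over the 6 libraries of 19.2, 17.3, 15.5 and 10.8 RPKM. Jarid2, Ehmt2, Setdb1, Suv39h1, Ezh1 and Suv39h2 followed with means of 5.20, 5.16, 4.67, 3.92, 2.59 and 2.40 RPKM. Eed, Suz12 and Ezh2, all core subunits of PRC2, thus had higher means per length than every H3K9 enzyme, of which Ehmt1 came closest. Of 9 neighbouring pairs in this order, 3 kept the same order in all 6 libraries: Ezh2 above Ehmt1, Ehmt1 above Jarid2, and Suv39h1 above Ezh1, with mean log2 ratios of 0.52, 1.07 and 0.59. The other 6 pairs changed order in at least 1 library. The planned exact test of each pair is not quoted, because the pairs and their direction were set by the means of the same libraries. Without Scx+/+ replicate 2, 5 of the same 9 pairs held in the 5 libraries left, Suz12 above Ezh2 and Setdb1 above Suv39h1 being added, a count made after seeing the data.

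**Figure D2:**
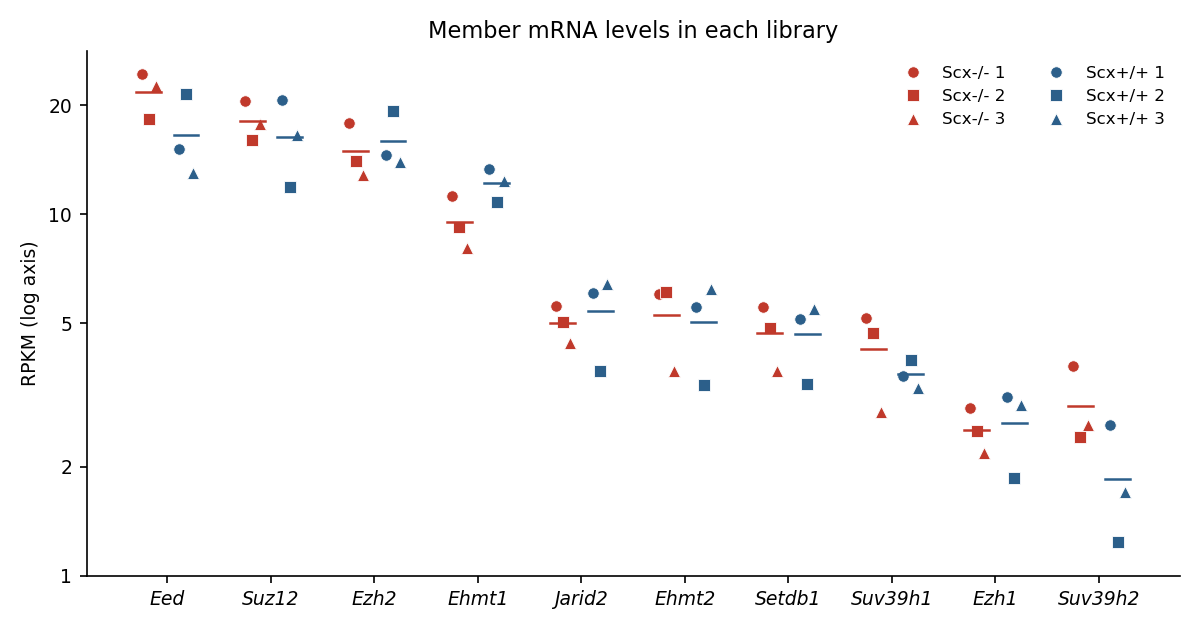
RPKM (log axis) of the 10 members in each of the 6 libraries, ordered by mean level, with Scx-/- in red, Scx+/+ in blue, a marker shape for each replicate number and a line at the mean of each genotype. The genotypes overlap for every member, and Scx+/+ replicate 2 (blue square) is lowest for 6 of the 10.

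Promoters of 4 members are printed because Ezh1 and Ehmt2 are both low in Scx+/+ replicate 2, Ezh2 is high there, and Ehmt1 is the only member called after median centring. All 10 members matched the RefSeq promoters (build GRCm38.p6), with 13 windows of 300 bases around annotated starts, and the sequences run 5′ to 3′ on the strand of the gene. The windows shown are chr11:101226414-101226713 (minus strand) for Ezh1, chr2:24919560-24919859 (minus strand) for Ehmt1, chr17:34898224-34898523 (plus strand, the upstream of both annotated starts) for Ehmt2 and chr6:47594981-47595280 (minus strand) for Ezh2. Capitals in the first group mark CANNTG, the E-box letters known to be bound by basic helix-loop-helix proteins, which read the same on both strands.
Ezh1: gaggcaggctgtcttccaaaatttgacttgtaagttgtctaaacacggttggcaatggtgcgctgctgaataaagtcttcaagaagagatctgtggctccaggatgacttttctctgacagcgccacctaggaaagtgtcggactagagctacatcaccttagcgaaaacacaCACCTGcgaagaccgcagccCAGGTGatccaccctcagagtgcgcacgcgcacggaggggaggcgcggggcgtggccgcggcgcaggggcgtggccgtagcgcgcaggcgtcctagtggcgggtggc
Ehmt1: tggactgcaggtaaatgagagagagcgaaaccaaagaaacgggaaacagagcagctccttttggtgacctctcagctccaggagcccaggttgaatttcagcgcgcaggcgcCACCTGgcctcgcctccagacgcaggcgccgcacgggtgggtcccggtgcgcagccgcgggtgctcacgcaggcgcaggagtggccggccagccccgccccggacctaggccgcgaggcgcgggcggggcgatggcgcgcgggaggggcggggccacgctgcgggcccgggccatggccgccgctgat
Ehmt2: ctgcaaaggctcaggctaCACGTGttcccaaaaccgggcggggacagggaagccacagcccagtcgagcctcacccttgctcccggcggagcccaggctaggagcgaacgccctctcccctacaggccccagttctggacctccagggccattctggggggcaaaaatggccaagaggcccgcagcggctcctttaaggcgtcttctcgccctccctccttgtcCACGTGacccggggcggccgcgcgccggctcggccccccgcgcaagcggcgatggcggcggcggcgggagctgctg
The Ezh2 window holds no CANNTG, and its capitals mark TTTNNCGC, letters known from E2F sites, searched on both strands, and none of the 4 windows holds both kinds of letters.
Ezh2: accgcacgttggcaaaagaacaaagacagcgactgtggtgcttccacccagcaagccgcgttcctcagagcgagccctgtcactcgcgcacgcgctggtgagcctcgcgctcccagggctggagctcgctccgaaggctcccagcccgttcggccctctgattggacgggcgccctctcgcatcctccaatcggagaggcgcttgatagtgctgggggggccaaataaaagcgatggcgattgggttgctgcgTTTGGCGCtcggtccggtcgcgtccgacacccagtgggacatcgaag

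CANNTG was found in 9 of 13 member windows (69.2%) and in 72.3% of all 32851 windows of that length. TTTNNCGC was found in 3 member windows (23.1%), those of Ezh2, Suz12 and 1 start of Suv39h1, and in 5.17% of all windows. A match is a description of the letters and not a site or a cause. The member windows held 15 to 41 CG pairs, against a median of 7 over all windows.

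Ezh2 and Ezh1 encode the alternative catalytic subunits of PRC2, Ezh2 being the form of dividing cells and Ezh1 that of cells that divide little. Ezh2 (ENSMUSG00000029687, mm9 chr6:47480273-47545340, minus strand) was 17.9, 14.1 and 12.9 RPKM in Scx-/-, and 14.6, 19.4 and 13.9 RPKM in Scx+/+, from 4763 to 5917 reads a library. Its highest value was in Scx+/+ replicate 2 and its lowest in Scx-/- replicate 3, and the genotypes overlapped. The log2 fold change was -0.094 (95% interval -0.56 to 0.37, limma adjusted p = 0.980). It turned to 0.052 without Scx+/+ replicate 2 and to 0.0060 without Scx-/- replicate 3. Ezh1 (ENSMUSG00000006920, mm9 chr11:101052429-101087777, minus strand) was 2.91, 2.51 and 2.18 RPKM in Scx-/- and 3.13, 1.86 and 2.97 RPKM in Scx+/+, from 643 to 1514 reads a library. In contrast to Ezh2, its lowest value was in Scx+/+ replicate 2. Its log2 fold change was -0.039 (95% interval -0.70 to 0.62, limma adjusted p = 0.996), and it was above 0 without Scx-/- replicate 3, Scx+/+ replicate 1 or Scx+/+ replicate 3 (0.061, 0.094 and 0.056).

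Eed binds the methylated tail of histone H3 and Suz12 holds the complex together. Eed (ENSMUSG00000030619, mm9 chr7:97103166-97129493, minus strand) was 24.4, 18.4 and 22.6 RPKM in Scx-/- and 15.1, 21.5 and 13.0 RPKM in Scx+/+, from 1972 to 2997 reads a library. Means were 21.8 ± 3.10 RPKM (SD, 3 libraries) and 16.5 ± 4.46 RPKM (SD, 3 libraries), and 2 of the 3 Scx-/- libraries lay above every Scx+/+ library, while Scx+/+ replicate 2 lay above the remaining one. For Eed the log2 fold change was 0.42 (95% interval -0.086 to 0.92, limma adjusted p = 0.967), and 0.31 (95% interval -0.17 to 0.79, limma adjusted p = 1.00) after median centring. Without Scx+/+ replicate 2, Eed was called, with a log2 fold change of 0.62 (limma adjusted p = 0.598), where 1549 genes were called in all, and it was not called without any other single library (0.26 to 0.62 over the 6 fits). Suz12 (ENSMUSG00000017548, mm9 chr11:79806608-79847625, plus strand) was 20.6, 16.1 and 17.8 RPKM in Scx-/- and 20.7, 11.9 and 16.5 RPKM in Scx+/+. Scx+/+ replicate 2 was the lowest library and Scx+/+ replicate 1 the highest, and the log2 fold change was 0.18 (95% interval -0.34 to 0.69, limma adjusted p = 0.967). Without Scx+/+ replicate 2 it was -0.035. Suz12 shares 178 exon bases (3.60%) with the noncoding gene Gm16706 on the opposite strand, and Ezh2 shares 174 (2.81%) with Gm17629, and reads of such pairs cannot be told apart without a strand.

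Jarid2 is an accessory subunit that helps bring PRC2 to its targets and is known to be needed for heart development. Jarid2 (ENSMUSG00000038518, mm9 chr13:44824843-45017012, plus strand) was 5.57, 5.02 and 4.41 RPKM in Scx-/- and 6.06, 3.69 and 6.42 RPKM in Scx+/+. The Scx-/- libraries lay between Scx+/+ replicate 2, the lowest, and the other Scx+/+ libraries. The log2 fold change was -0.072 (95% interval -0.66 to 0.52, limma adjusted p = 0.990), and it was above 0 without Scx-/- replicate 3 (0.013), Scx+/+ replicate 1 (0.031) or Scx+/+ replicate 3 (0.071).

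Ehmt1 (GLP) and Ehmt2 (G9a) form a heteromer that places mono- and dimethylation on H3K9 in euchromatin. Ehmt1 (ENSMUSG00000036893, mm9 chr2:24646289-24775129, minus strand) was 11.2, 9.22 and 8.08 RPKM in Scx-/- and 13.3, 10.8 and 12.4 RPKM in Scx+/+, from 3435 to 6035 reads a library. Means were 9.51 and 12.2 RPKM, and 2 of the 3 Scx-/- libraries lay below every Scx+/+ library, while Scx-/- replicate 1 exceeded Scx+/+ replicate 2. Ehmt1 had a log2 fold change of -0.36 (95% interval -0.80 to 0.079, limma adjusted p = 0.967), and -0.47 (95% interval -0.85 to -0.092, limma adjusted p = 1.00) after median centring. With each library left out on the centred scale, a step added after seeing the data, Ehmt1 ranged from -0.55 to -0.40 and kept its direction. It was called in 2 of these 6 fits, those without Scx-/- replicate 1 and without Scx+/+ replicate 2, and missed the threshold without Scx-/- replicate 2, Scx-/- replicate 3, Scx+/+ replicate 1 or Scx+/+ replicate 3 (-0.47, -0.40, -0.44 and -0.42). Over all genes, 560 were called without Scx-/- replicate 1 and 1451 without Scx+/+ replicate 2, against 646 with all 6 libraries. On the deposited scale Ehmt1 was called without Scx-/- replicate 1 (-0.49, limma adjusted p = 1), where 578 genes were called in all. In that fit the endothelial markers Cdh5 and Kdr were called lower as well (-0.63 and -0.50), while Pecam1, Tek and Emcn were not called. Their part in the Ehmt1 value was not tested. Left-out values of Ehmt1 on the deposited scale ran from -0.49 to -0.25.

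Ehmt2 (ENSMUSG00000013787, mm9 chr17:35035414-35050997, plus strand) was 6.02, 6.11 and 3.67 RPKM in Scx-/- and 5.54, 3.37 and 6.23 RPKM in Scx+/+. In each genotype 1 library, Scx-/- replicate 3 or Scx+/+ replicate 2, lay well below the other 2. The log2 fold change was 0.071 (95% interval -0.62 to 0.76, limma adjusted p = 0.994) and changed sign after median centring (-0.038). With each library left out it ranged from -0.19 to 0.31.

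Suv39h1 and Suv39h2 place trimethylation on H3K9 in heterochromatin, and Setdb1 does so at repeats and silenced genes. Suv39h1 (ENSMUSG00000039231, mm9 chrX:7638297-7651886, minus strand) was 5.15, 4.70 and 2.84 RPKM in Scx-/- and 3.57, 3.95 and 3.31 RPKM in Scx+/+. The Scx-/- libraries held both the highest values and the lowest, in replicate 3. For Suv39h1 the log2 fold change was 0.18 (95% interval -0.44 to 0.80, limma adjusted p = 0.972), and 0.072 after median centring. With 1 library left out it ran from 0.020 without Scx-/- replicate 1 to 0.44 without Scx-/- replicate 3, and was called in none of the 6 fits. Without both Scx-/- replicate 3 and Scx+/+ replicate 2, a choice made after seeing the data, it was called at 0.50 (limma adjusted p = 0.578), where 1587 genes were called in all. Suv39h2 (ENSMUSG00000026646, mm9 chr2:3373087-3392303, minus strand) was the least abundant member, at 3.81, 2.43 and 2.60 RPKM in Scx-/- and 2.61, 1.24 and 1.70 RPKM in Scx+/+, from 254 to 879 reads a library. Scx-/- replicate 1 was highest and Scx+/+ replicate 2 lowest, a 3.07-fold range, and Scx+/+ replicate 1 lay within the range of Scx-/-. Suv39h2 had a log2 fold change of 0.68 (95% interval -0.092 to 1.45, limma adjusted p = 0.967), and 0.57 (95% interval -0.15 to 1.28, limma adjusted p = 1.00) after median centring. Without Scx+/+ replicate 1 it was called, at 0.94 (limma adjusted p = 0.883), where 1003 genes were called in all, 767 of them higher in Scx-/-. It was 0.44 without Scx+/+ replicate 2, its lowest library, where the value of Eed was 0.62, and 0.48 without Scx-/- replicate 1, its highest, and it was called in none of the other fits with 1 library left out. Setdb1 (ENSMUSG00000015697, mm9 chr3:95127447-95161124, minus strand) was 5.52, 4.85 and 3.68 RPKM in Scx-/- and 5.12, 3.39 and 5.48 RPKM in Scx+/+. Its log2 fold change was 0.015 (95% interval -0.59 to 0.62, limma adjusted p = 0.998), and -0.095 after median centring. Across the 6 libraries, after centring, Setdb1 followed Ehmt2, Ezh1 and Jarid2 (Pearson r = 0.968, 0.945 and 0.939). Ezh1 and Jarid2 were also close to each other (0.98).

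Suv39h1 shares 596 exon bases (11.3%) with the antisense transcript gene Gm14820, Suv39h2 shares 357 (8.10%) with Dclre1c and 83 with Gm13184, and Setdb1 shares 64 with Lass2, all on the opposite strand. Dclre1c was 1.14, 1.22 and 0.627 RPKM in Scx-/- and 1.07, 0.384 and 0.956 RPKM in Scx+/+, also lowest in Scx+/+ replicate 2, and its part in the Suv39h2 value was not tested.

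Libraries of one genotype differed from each other, also for Ezh1, Ehmt2 and Ezh2, whose promoters are printed above. Scx+/+ replicate 2 held the lowest value of 6 of 10 members, Ezh1, Suz12, Jarid2, Ehmt2, Suv39h2 and Setdb1, and the highest value of Ezh2. Over all 13827 genes averaging 1 RPKM or more, that library was lowest for 26.9% and highest for 20.5%, while Scx+/+ replicate 3 was lowest for more of them, 29.9%, and Scx-/- replicate 1 was highest most often, for 30.1%. Of the 55 other pathway genes described below, 24 were lowest in Scx+/+ replicate 2 and 17 in Scx+/+ replicate 3. After median centring, log2 deviations in Scx+/+ replicate 2 from the mean of all 6 were -0.77 for Suv39h2, -0.50 for Ehmt2 and -0.46 for Suz12, against 0.39 for Ezh2 and 0.25 for Eed. Scx-/- replicate 3 held the lowest values of 3 members, Ezh2, Ehmt1 and Suv39h1. Spread within genotypes differed between members: the within-genotype SD of Ehmt1 on the log2 scale ranked at percentile 21.8 of genes averaging 1 RPKM or more, and that of Ehmt2 at 72.1, the lowest and the highest of the members.

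**Figure D3:**
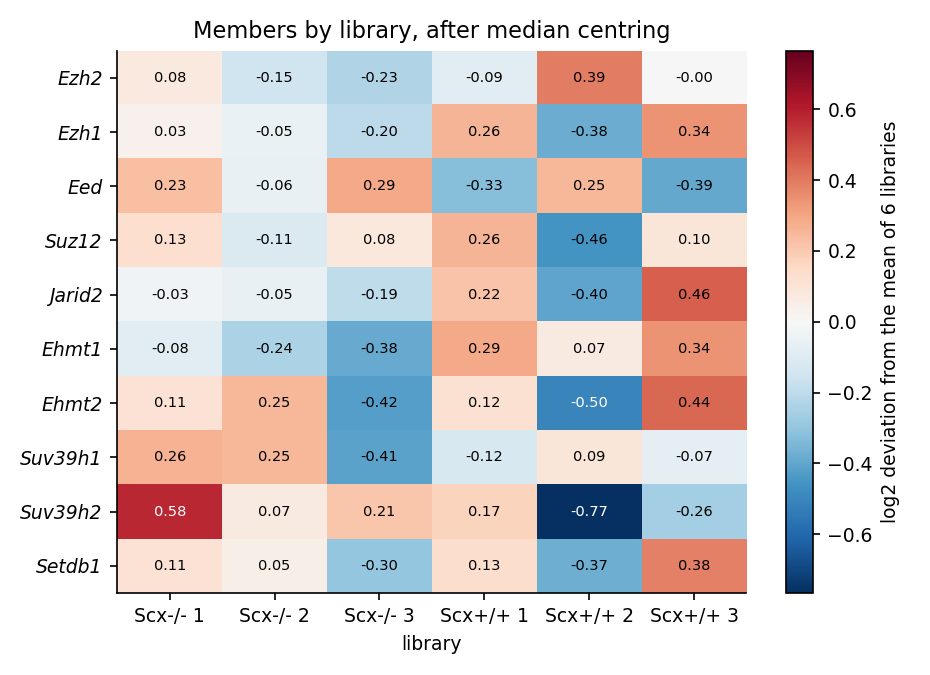
Log2 deviation of each member (rows) in each library (columns) from its mean over the 6 libraries, after median centring, with red above and blue below the mean. Suv39h2 in Scx+/+ replicate 2 is the lowest cell (-0.77), and Ezh2 in the same library is 0.39.

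Among 7862 genes averaging 5 RPKM or more, those most like Ezh2 across the 6 libraries, after median centring, were Gm6097, Gspt1 and Stat6 (Pearson r = 0.977, 0.975 and 0.975). Those most like Ehmt2 were Sft2d2, Mmp14 and Cpne1 (Pearson r = 0.999, 0.989 and 0.988). These values rest on 6 libraries and are given as a description.

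Ratios within a library do not depend on how the library was scaled, and were compared for 3 pairs of related enzymes. The ratio of Ezh2 to Ezh1 was 6.15, 5.60 and 5.90 in Scx-/- and 4.67, 10.4 and 4.69 in Scx+/+. Scx+/+ replicate 2 had by far the highest ratio, and the other 5 ran from 4.67 to 6.15. The mean log2 ratios differed by -0.056 (exact permutation test, two-sided, p = 1), and by 0.33 without Scx+/+ replicate 2, where both remaining Scx+/+ libraries lay below all Scx-/- libraries. The ratio of Suv39h1 to Suv39h2 was 1.35, 1.94 and 1.09 in Scx-/- and 1.37, 3.18 and 1.95 in Scx+/+, and the genotypes overlapped (difference of mean log2 ratios -0.52, exact permutation p = 0.2, 0.3 adjusted over the 3 ratios). That difference was -0.20 without Scx+/+ replicate 2, which had the highest ratio, -0.33 without Scx-/- replicate 3 and -0.81 without Scx+/+ replicate 1. The ratio of Ehmt2 to Ehmt1 was 0.536, 0.663 and 0.455 in Scx-/- and 0.415, 0.312 and 0.503 in Scx+/+, so Ehmt1 was the more abundant partner per length in all 6 libraries. The genotypes overlapped here as well (difference of mean log2 ratios 0.44, exact permutation p = 0.2, 0.3 adjusted), and 3 libraries against 3 cannot give an exact two-sided p below 0.1. Without Scx+/+ replicate 2, which had the lowest ratio, the difference was 0.25, and it was 0.30 without Scx-/- replicate 2.

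**Figure D4:**
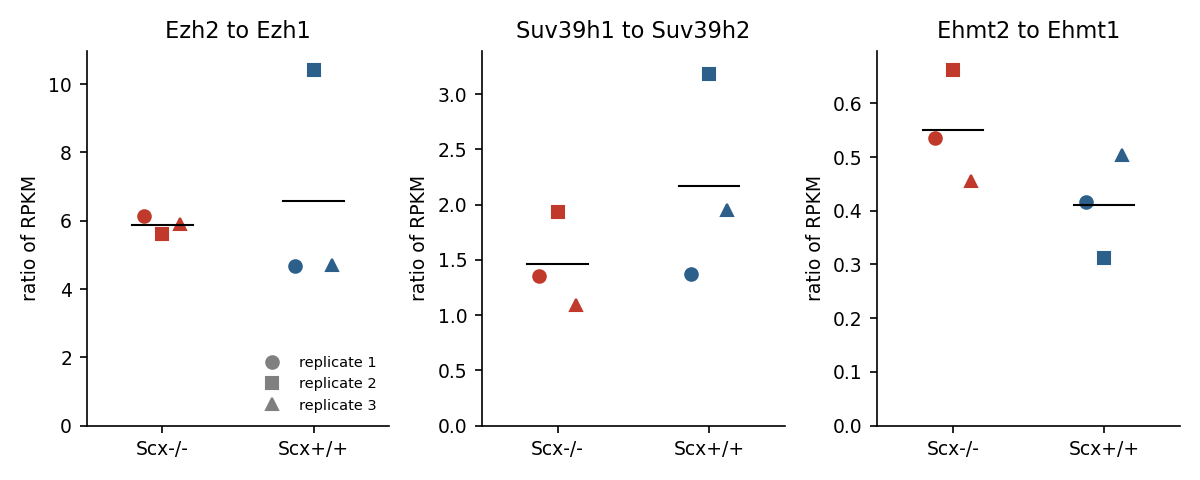
Ratio of RPKM within each library for Ezh2 to Ezh1, Suv39h1 to Suv39h2 and Ehmt2 to Ehmt1, with Scx-/- in red, Scx+/+ in blue, a marker shape for each replicate number and a line at the mean of each genotype. Scx+/+ replicate 2 has the highest ratio of Ezh2 to Ezh1 (10.4) and the lowest of Ehmt2 to Ehmt1 (0.312).

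Other genes of both systems were taken from lists of their partners and opponents, of which 55 of 99 had a row. At an unadjusted p below 0.05 limma called 0 of 55, against 3.89% of all genes, 0 after adjustment, and one-way ANOVA on log2 RPKM called 1 (Bub1). Genotypes did not overlap for 4 of them, Rbbp7, Ring1, Ccnb1 and Bub1, all higher in Scx-/-, against 9.5% of all genes. Of the other PRC2 subunits, 6 of 6 were in the table, with a median log2 fold change of 0.17. The histone-binding subunit Rbbp7 was the most abundant, at 88.4, 77.1 and 82.2 RPKM in Scx-/- and 71.7, 76.8 and 63.4 RPKM in Scx+/+, several times the level of any member per length. Every Scx-/- value of Rbbp7 exceeded every Scx+/+ value, by as little as the gap between 77.1 and 76.8 RPKM, and its log2 fold change was 0.23 (95% interval -0.13 to 0.59, limma adjusted p = 0.967).

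PRC1 reads the H3K27 mark and ubiquitinates histone H2A. Its list had 18 of 19 genes in the table (Cbx7 was not analysed here), with a median log2 fold change of 0.12 and 13 above 0, or 9 after median centring, against 63.8% and 49.4% of all genes. The E3 ligase gene Rnf2 led the list at 36.2, 37.0 and 32.1 RPKM in Scx-/- and 34.8, 28.8 and 34.7 RPKM in Scx+/+, while its paralog Ring1 was near 1, at 1.63, 1.30 and 1.23 RPKM and 0.986, 1.12 and 0.652 RPKM. Ring1 did not overlap between genotypes, with a log2 fold change of 0.57 (95% interval -0.23 to 1.36, limma adjusted p = 0.967). This value ran from 0.36 to 0.71 with 1 library left out, and Ring1 was called in 0 of these fits. The H3K27 demethylase Kdm6a, an X-linked gene, was 6.07, 11.1 and 4.71 RPKM in Scx-/- and 7.32, 7.09 and 6.61 RPKM in Scx+/+, highest in the Xist-expressing Scx-/- replicate 2, and its paralog Kdm6b was 0.767, 0.320 and 0.270 RPKM and 0.879, 0.167 and 1.10 RPKM.

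Of the heterochromatin protein (HP1) genes, Cbx3 and Cbx5 had means over the 6 libraries of 80.0 and 54.6 RPKM, and Cbx1 of 14.0 RPKM. Cbx3 (HP1 gamma), which binds methylated H3K9, was 90.7, 88.8 and 82.0 RPKM in Scx-/- and 82.9, 69.4 and 66.2 RPKM in Scx+/+, the highest mean of its list, and its log2 fold change was 0.26 (95% interval -0.10 to 0.63, limma adjusted p = 0.967). The list of H3K9 readers, cofactors and other methyltransferases had a median log2 fold change of 0.064 over 9 genes. H3K9 demethylases had a median of -0.10 over 8 of 9 genes (Kdm4d was not analysed here), and 2 of them were above 0, against 63.8% of all genes. Kdm1a was the most abundant, at 20.3, 16.5 and 12.2 RPKM in Scx-/- and 20.2, 9.19 and 15.9 RPKM in Scx+/+. Kdm3b, named after its values were seen, was 3.79, 3.60 and 2.49 RPKM in Scx-/- and 6.14, 3.32 and 5.62 RPKM in Scx+/+, and it was the only gene of these lists called after median centring, with a centred log2 fold change of -0.68 (95% interval -1.33 to -0.030, limma adjusted p = 1.00). With 1 library left out, this centred call was kept only without Scx+/+ replicate 2 (-0.95), where 1451 genes were called in all. It was lost without any of Scx-/- replicates 1, 2 and 3 (-0.74, -0.77 and -0.53), Scx+/+ replicate 1 (-0.55) or Scx+/+ replicate 3 (-0.54). On the deposited scale its log2 fold change was -0.57 (95% interval -1.25 to 0.11, limma adjusted p = 0.967).

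Of 5 PRC2 targets known from heart, Pax6 and Cdkn2b had rows, and both were low: Cdkn2b, the more abundant, was 0.220, 1.48 and 0.517 RPKM in Scx-/- and 0.263, 0.325 and 0.639 RPKM in Scx+/+. The 39 Hox genes were not analysed here. Proliferation genes had a median log2 fold change of 0.32, and 0.21 after median centring, against 0.10 and -0.0045 over all genes. Above 0 were 9 of 10 on either scale, against 63.8% of all genes on the deposited scale and 49.4% after centring. Mki67 was the gene below 0 (-0.0505, and -0.16 after median centring). It was called lower only after centring without Scx+/+ replicate 2 (-0.37), where Cdk1 was called higher (0.38) and 1451 genes were called in all. Top2a led the list at 106, 97.9 and 106 RPKM in Scx-/- and 100, 89.6 and 78.5 RPKM in Scx+/+. Bub1, a spindle checkpoint kinase, was 27.2, 21.4 and 21.6 RPKM and 19.8, 16.6 and 17.3 RPKM, with a log2 fold change of 0.38 (95% interval -0.015 to 0.77, limma adjusted p = 0.967). Ccnb1, a mitotic cyclin, was 47.7, 39.3 and 35.8 RPKM and 35.2, 31.2 and 30.3 RPKM, with a log2 fold change of 0.34 (95% interval -0.049 to 0.72, limma adjusted p = 0.967). With 1 library left out, Bub1 ran from 0.26 to 0.45 and was called only without Scx+/+ replicate 1 (0.45). Ccnb1 ran from 0.22 to 0.43 and was called only without Scx-/- replicate 3 (0.43). Also called higher were Ccna2 without Scx+/+ replicate 1 (0.42) and Mcm2 without Scx-/- replicate 3 (0.60, and 0.45 after centring). Cdk1 and Pcna were called higher without Scx+/+ replicate 2 (0.49 and 0.47). On the deposited scale these fits called 1003, 821 and 1549 genes in all. The part of dividing cells in the member values was not tested.

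**Figure D5:**
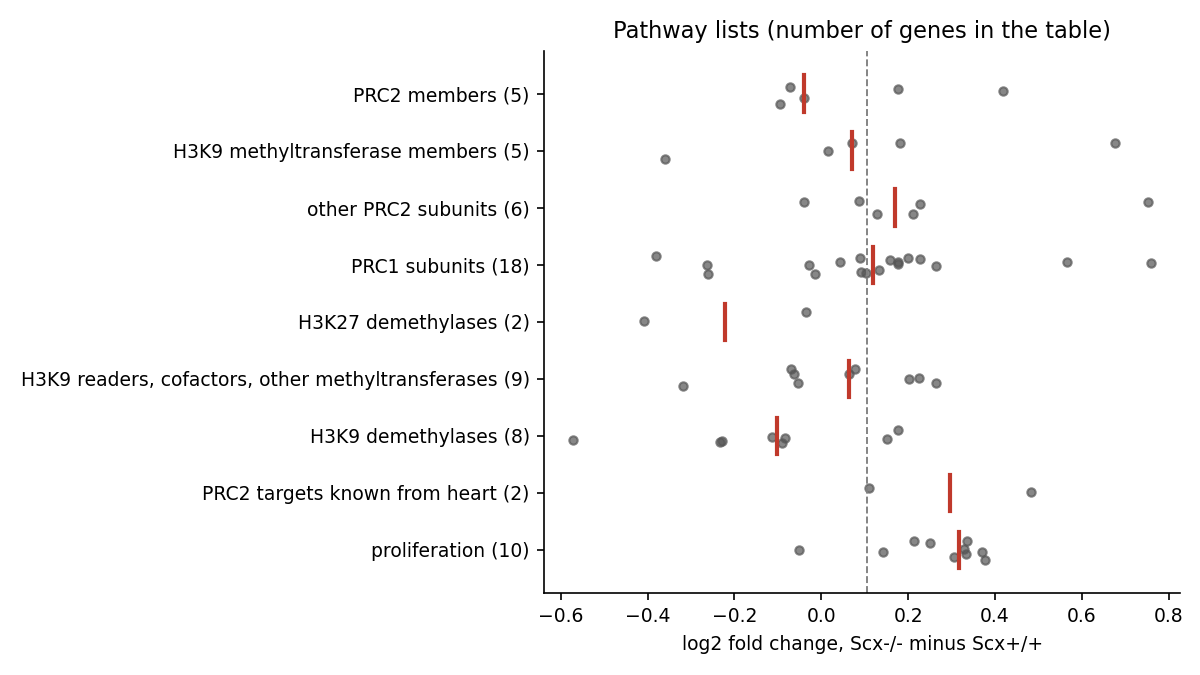
Log2 fold change, Scx-/- minus Scx+/+, of each gene (points, spread vertically for sight) in the pathway lists, with a red line at the median of the list and a dashed line at the median of all 18810 genes (0.10). Numbers in brackets are genes in the table. The members spread on both sides of the dashed line, from -0.36 for Ehmt1 to 0.68 for Suv39h2.

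Markers showed which cells the libraries held, and their part in the member values was not tested. Cardiomyocyte markers (6 of 6 in the table, Tnnt2 the most abundant) summed to 12655, 10132 and 14025 RPKM in Scx-/- and 11463, 15773 and 9536 RPKM in Scx+/+, highest in Scx+/+ replicate 2, far above the sums of the valve mesenchyme markers below. Log2 fold changes in that list were above 0 for 3 of 6 genes (Tnnt2 0.23, Actc1 0.12 and Ttn 0.076) and below 0 for Myh6 (-0.30), Myh7 (-0.33) and Nppa (-0.012), with 0 called by limma on either scale. Signs of 4 genes turned with 1 library left out: Actc1 (-0.0505 to 0.27), Ttn (-0.29 to 0.27), Myh6 (-0.55 to 0.050) and Nppa (-0.39 to 0.52). Tnnt2 ran from 0.058 to 0.45 and Myh7 from -0.41 to -0.26. Ttn was also below 0 after median centring (-0.034). Scx+/+ replicate 2 was highest for Myh6 (2219 RPKM) and lowest for Ttn (92.4 RPKM), and Myh7 was lower in every Scx-/- library (2313, 1923 and 2148 RPKM in Scx-/- against 2824, 2826 and 2380 RPKM in Scx+/+). Valve mesenchyme markers (6 of 6, Postn the most abundant) summed to 380, 507 and 522 RPKM in Scx-/- and 383, 420 and 354 RPKM in Scx+/+. That sum is carried by Postn (0.51): the median log2 fold change of the list was -0.092, the other 5 genes were below 0, and Col1a1 was lower in every Scx-/- library (7.34, 8.09 and 7.70 RPKM in Scx-/- against 9.91, 8.36 and 15.8 RPKM in Scx+/+). With 1 library left out, Postn ran from 0.31 to 0.73 and was called in 2 of 6 fits. Col1a1 ran from -0.69 to -0.24 and was called in 1. Sox9, Vcan and Col3a1 reached values above 0 in such fits (0.17, 0.21 and 0.11). Defining genes of valve mesenchyme were present, with Sox9 at 1.79, 2.60 and 1.41 RPKM in Scx-/- and 2.15, 1.26 and 3.36 RPKM in Scx+/+. Endothelial markers (5 of 5, led by Pecam1) summed to 127, 110 and 109 RPKM in Scx-/- and 122, 119 and 107 RPKM in Scx+/+, with 0 called by limma on the deposited scale over all 6 libraries. Without Scx-/- replicate 1, where Ehmt1 was called on that scale, Cdh5 and Kdr were called lower (-0.63 and -0.50). Pecam1, Tek and Emcn were called in 0 of the 6 left-out fits on that scale. After median centring, where Ehmt1 was called lower, Cdh5 and Kdr were called lower as well (-0.51 and -0.44, limma adjusted p = 1.00 and 1.00), and their part in the Ehmt1 value was not tested. The other 3 were not called on that scale (Pecam1 -0.085, Tek 0.093 and Emcn 0.19), and the list had a centred median of -0.085, with 3 of 5 above 0 on the deposited scale and 2 after centring. Without Scx-/- replicate 2, Scx-/- replicate 3 or Scx+/+ replicate 1 neither Cdh5 nor Kdr was called after centring (Cdh5 -0.43, -0.40 and -0.47, Kdr -0.47, -0.30 and -0.45), and without Scx+/+ replicate 3 Kdr was not (-0.41).

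Epicardial markers (4 of 4, led by Tbx18) summed to 24.8, 25.4 and 16.1 RPKM in Scx-/- and 19.3, 14.2 and 19.1 RPKM in Scx+/+, and 1 of them, Aldh1a2, was called, its levels higher in Scx-/-, at a log2 fold change of 0.60 (95% interval 0.024 to 1.18, limma adjusted p = 0.967). Aldh1a2 was not called after median centring (0.49), and with 1 library left out on the deposited scale it was called only without Scx+/+ replicate 2 (0.70), against 0.50, 0.67 and 0.63 without Scx-/- replicates 1, 2 and 3, 0.69 without Scx+/+ replicate 1 and 0.41 without Scx+/+ replicate 3. Smooth muscle markers (3 of 3, led by Acta2) summed to 612, 509 and 443 RPKM in Scx-/- and 490, 440 and 401 RPKM in Scx+/+, with 0 called by limma. All 3 were above 0, with a median log2 fold change of 0.52, and Tagln was higher in every Scx-/- library (63.5, 112 and 60.2 RPKM in Scx-/- against 53.1, 47.8 and 56.7 RPKM in Scx+/+). Tagln ran from 0.24 to 0.68 with 1 library left out and was called in 1 of these 6 fits. Myh11 ran from 0.10 to 1.23 and Acta2 from -0.001 to 0.26, and neither was called. Erythroid markers (5 of 5, led by Hba-a1) summed to 6670, 7013 and 4721 RPKM in Scx-/- and 3864, 5309 and 6940 RPKM in Scx+/+, with 0 called. Macrophage markers (4 of 4, led by Emr1) summed to 4.75, 5.39 and 3.29 RPKM in Scx-/- and 3.41, 3.06 and 2.50 RPKM in Scx+/+, and Cd68 was called (0.639, 1.54 and 0.812 RPKM in Scx-/- and 0.358, 0.0949 and 0.476 RPKM in Scx+/+, limma adjusted p = 0.967). Cd68 kept this call after median centring and lost it on the deposited scale without Scx-/- replicate 2 (1.14), Scx-/- replicate 3 (1.57) or Scx+/+ replicate 2 (1.01), and after centring also when each of these was left out (1.02, 1.42 and 0.90) or Scx+/+ replicate 1 was (1.48). Melanocyte and Schwann cell markers (4 of 6, led by Dct) summed to 4.60, 7.21 and 4.99 RPKM in Scx-/- and 3.63, 2.60 and 2.74 RPKM in Scx+/+, and Mlana and Dct were called, both higher in Scx-/- (limma adjusted p = 0.967 and 0.967). After median centring Mlana was still called, though not without Scx-/- replicate 1, and Dct was not called (0.79). On the deposited scale Mlana was called in all 6 fits with 1 library left out, and Dct was not called without Scx-/- replicate 2 (0.58), Scx-/- replicate 3 (0.93), Scx+/+ replicate 2 (0.81) or Scx+/+ replicate 3 (0.81). In Scx+/+ every library had Mlana at the filled-in low value. Leaving out 1 of these libraries therefore could not change its log2 fold change on the deposited scale (1.75). Its Scx-/- values rested on 39, 15 and 14 reads.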

How the data were processed

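The authors aligned reads of the 6 libraries to mm9 with TopHat 1.4.1 (version from the submitters' processing notes), counted them per Ensembl gene with easyRNASeq and deposited RPKM, with values of few reads replaced by a fill-in of 0.0949 RPKM. By their methods, genes of few reads in all libraries were removed. A strand for the counting is not given in the sources used here. Identifiers were matched to GENCODE on mm9 (18695 of 18810). Reads were recovered from RPKM and exon length, whole within 0.1 read for 98.5% to 98.6% of low values, and served only to describe depth.

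limma 3.58.1 in R 4.3.3 modelled log2(RPKM + 0.1) by genotype alone, its prior variance following mean level, and p was adjusted over 18810 genes by Benjamini-Hochberg. Exact permutation of ratios ran in Python 3.11.15 with scipy 1.17.1. The fit was tested on simulated data. Alternatives were pseudocounts 0.01 and 1, a mean of at least 1 RPKM, no trend, one-way ANOVA, quantile normalization, median centring, a replicate block, sex, removal of spline trends (5 degrees of freedom) on exon length and GC content, and each library left out, with those added after seeing the data named where used.

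Named genes include the members, Scx, genes sharing exon bases with members, and list genes called, not overlapping or most abundant. Also named are the paralogs Kdm6b, Cbx1 and Cbx5, the proliferation genes Mki67, Cdk1, Pcna, Ccna2 and Mcm2, the 3 genes most like Ezh2 and Ehmt2, and cell type markers. Jmjd1c and Atf7ip each have 2 identifiers, and the longer was used. The members and lists were chosen with earlier results of these data known.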

Additional observations from a re-analysis of the deposited data

How the results depend on the processing

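Against 731 of all genes called, the alternatives that kept 6 libraries called from 568, among the 13827 genes averaging 1 RPKM or more, to 865 by one-way ANOVA on log2 RPKM, and the count ran from 539 to 1549 with each library left out. Of the members, 1 (Ehmt1) was called after quantile normalization, after median centring and with length and GC trends removed, and 0 to 1 with each library left out. After median centring, 0 to 2 members were called with each library left out, where 472 to 1451 genes were called in all, a choice made after seeing the data. The 2 members, Eed and Ehmt1, were called in the fit without Scx+/+ replicate 2, the one with 1451 genes. Of the other pathway genes, 1 was called by one-way ANOVA on log2 RPKM (Bub1), after quantile normalization, after median centring and with length and GC trends removed (Kdm3b in all 3), and 0 to 4 with each library left out. Without both Scx-/- replicate 3 and Scx+/+ replicate 2, chosen after seeing the data, the counts were 1587 genes, 2 members (Eed and Suv39h1) and 3 pathway genes. The direction turned for Ehmt2 after quantile normalization and median centring (-0.014 and -0.038), for Setdb1 under both and with length and GC trends removed (-0.074, -0.095 and -0.018), and, without both libraries, for Ezh2 (0.15), Suz12 (-0.023) and Setdb1 (-0.034). With each library left out, log2 fold changes ran from -0.27 to 0.094 for Ezh1, -0.23 to 0.052 for Ezh2, -0.035 to 0.36 for Suz12, -0.32 to 0.071 for Jarid2, -0.19 to 0.31 for Ehmt2, 0.020 to 0.44 for Suv39h1, 0.44 to 0.94 for Suv39h2 and -0.19 to 0.18 for Setdb1, and differences of the log2 ratio of Ezh2 to Ezh1 from -0.25 to 0.33. With neighbours formed anew from the libraries left, 3 to 6 pairs had 1 order in all of them, and of the 9 pairs of the report 3 to 5, a count made after seeing the data. The cause of these changes was not tested. With the replicate block 573 genes and 0 members were called. Deviations of libraries of the same number had correlations of 0.0921, -0.220 and -0.188. Such values, from deviations within 3 libraries a genotype, cannot show whether the numbers pair the libraries. Replicate 2 was the Xist-expressing library of both genotypes. With 3 libraries a genotype, only differences well above the spread between libraries can be called.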
